A study of Mus musculus with 4 samples.

Results

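Of 28989 genes with an entry of their own in the deposited tables, 9 are described here. They are the myozenins Myoz1, Myoz2 and Myoz3, the leiomodins Lmod2 and Lmod3, the Z-disc or actin-linked proteins Sorbs2, Ldb3 and Csrp3, and Mustn1. They were named as a set, and chosen by symbol with their differences between the ends and the middle of the muscle, and between the first and the last end, already known. Those contrasts are therefore given as a description with no test. The material was 171 kept cross-sections of 4 tibialis anterior muscles of the mouse (37, 45, 46 and 43 sections of muscles 1 to 4), a mostly fast muscle of the shin that lifts the foot. All 4 belong to 1 group: the labels name no strain, genotype, age, sex or treatment, and it is not stated whether each muscle is from another animal. The assay was TOMO-seq, in which serial frozen sections are cut along 1 direction of a tissue and the RNA of every section gets a barcode of its own. The library chemistry was CEL-Seq2, which counts 3′ ends of transcripts by unique molecular identifiers (UMIs), so that a transcript gives the same count whatever its length. Because whole sections were lysed, a lower value in a section cannot be told apart between fewer fibres that express a gene and less of its RNA per fibre.

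The Z-disc is the plate that bounds each sarcomere and anchors the barbed ends of the actin filaments through alpha-actinin. Myozenins (calsarcins) bind alpha-actinin and the phosphatase calcineurin; Myoz1 and Myoz3 are typical of fast fibres and Myoz2 of slow fibres and the heart. Leiomodins nucleate actin filaments and act at their pointed ends, with Lmod2 known for the length of thin filaments in the heart and Lmod3 for skeletal muscle, where its loss causes nemaline myopathy. Ldb3 (ZASP, Cypher) is a PDZ and LIM domain adaptor on alpha-actinin, Sorbs2 (ArgBP2) is an SH3 domain adaptor, and Csrp3 is the muscle LIM protein. Mustn1 is a small protein of the musculoskeletal system.

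Promoters are shown for 4 of the genes, Myoz2, Lmod2, Csrp3 and Mustn1. For Myoz2, Lmod2 and Csrp3 the log2 difference of the ends minus the middle zone was below 0 in all 4 muscles (-0.02 for Lmod2 in muscle 4). Mustn1 was included because its level differed between zones in a test, a call that several other fits lost. Each window runs from 250 bases before to 50 bases after a RefSeq start site (build GRCm38.p6), and 6 of the 9 genes were matched in that table. Capitals mark matches, on either strand, to an E-box (CANNTG), an M-CAT element (CATTCC), a MEF2 site or a CArG box. No matches overlapped in these 4 windows. Csrp3 has a second listed start that is not printed.
Myoz2, chr3:123034938-123035237, minus strand: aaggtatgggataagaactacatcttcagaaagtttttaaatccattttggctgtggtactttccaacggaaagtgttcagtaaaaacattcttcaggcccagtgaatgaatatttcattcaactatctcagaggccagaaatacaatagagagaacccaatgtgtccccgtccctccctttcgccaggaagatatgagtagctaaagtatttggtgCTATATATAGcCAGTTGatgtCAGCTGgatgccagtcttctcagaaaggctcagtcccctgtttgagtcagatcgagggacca
Lmod2, chr6:24597521-24597820, plus strand: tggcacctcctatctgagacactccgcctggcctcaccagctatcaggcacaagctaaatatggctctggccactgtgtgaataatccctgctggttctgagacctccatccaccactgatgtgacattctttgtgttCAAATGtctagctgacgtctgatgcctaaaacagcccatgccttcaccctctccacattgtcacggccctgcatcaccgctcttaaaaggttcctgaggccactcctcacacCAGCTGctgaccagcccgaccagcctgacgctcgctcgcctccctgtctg
Csrp3, chr7:48848002-48848301, minus strand: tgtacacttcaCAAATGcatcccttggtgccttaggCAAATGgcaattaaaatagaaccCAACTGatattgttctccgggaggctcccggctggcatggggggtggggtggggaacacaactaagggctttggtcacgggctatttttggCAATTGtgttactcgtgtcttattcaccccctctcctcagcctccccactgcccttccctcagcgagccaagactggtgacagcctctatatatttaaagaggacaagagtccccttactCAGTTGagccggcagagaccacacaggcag
Mustn1, chr14:30879007-30879306, plus strand: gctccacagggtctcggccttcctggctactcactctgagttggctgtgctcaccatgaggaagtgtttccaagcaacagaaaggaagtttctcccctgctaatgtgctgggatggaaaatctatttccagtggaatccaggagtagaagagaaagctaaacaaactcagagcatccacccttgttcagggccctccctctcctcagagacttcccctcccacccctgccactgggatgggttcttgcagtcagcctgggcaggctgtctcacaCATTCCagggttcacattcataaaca
The Myoz2 window held 1 MEF2 match and 2 E-boxes, the Lmod2 window 2 E-boxes and the Csrp3 window 5 E-boxes. The Mustn1 window held 1 M-CAT match and no E-box. Of 32851 mouse promoter windows of that length, 72.3% held an E-box, 14.7% an M-CAT match, 3.2% a MEF2 match and 1.6% a CArG match. These are matches of letters, and no binding was measured.

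The kept sections held 17114433 to 26989829 counts per muscle and 86190 to 1159697 per section. Sections were placed along each muscle by barcode number, which stands here for position. Neither the cutting order nor the anatomical end that was cut first is in the labels, so zone 1 is the fifth with the lowest barcode numbers and zone 5 the fifth with the highest. Levels are CPM (counts brought to the same total in each sum, after TMM scaling), from counts summed per muscle and zone (1989683 to 6604613 counts a sum). Transcripts of skeletal muscle fibres were abundant in every zone: Acta1 had zone means of 3297 to 3593 CPM and Ckm of 7518 to 8451 CPM. Muscles 1 and 2 carried another set of section barcodes than muscles 3 and 4, and this barcode set and the muscle cannot be told apart.

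Myoz1 and Ldb3 were the most abundant of the 9 genes and Csrp3 the rarest. The level averaged over zones was 738 ± 73.4 CPM (SD, n = 4 muscles) for Myoz1 and 698 ± 94.7 CPM for Ldb3, with overlapping ranges over the muscles. Mustn1 came next with 73.7 ± 28.5 CPM, ahead of Myoz3 (43.8 ± 8.66) and Sorbs2 (43.5 ± 7.75), whose ranges overlapped one another and that of Mustn1. Lmod3 had 25.3 ± 1.14 CPM, below the lowest muscle of Sorbs2 and Myoz3; without TMM scaling its range (20.9 to 29.04 CPM) overlapped that of Sorbs2 (from 26.65 CPM). Lmod2 (18.4 ± 8.10), Myoz2 (10.2 ± 4.22) and Csrp3 (4.68 ± 2.40) followed, each overlapping its neighbour in this order. In single sections the counts were small for the rarest: the median section was expected to hold 1.39 to 4.19 Csrp3 counts and 2.28 to 6.58 Myoz2 counts, depending on the muscle. Csrp3 had no count in 41 of the 171 sections, and Myoz2 in 24.

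**Figure D1:**
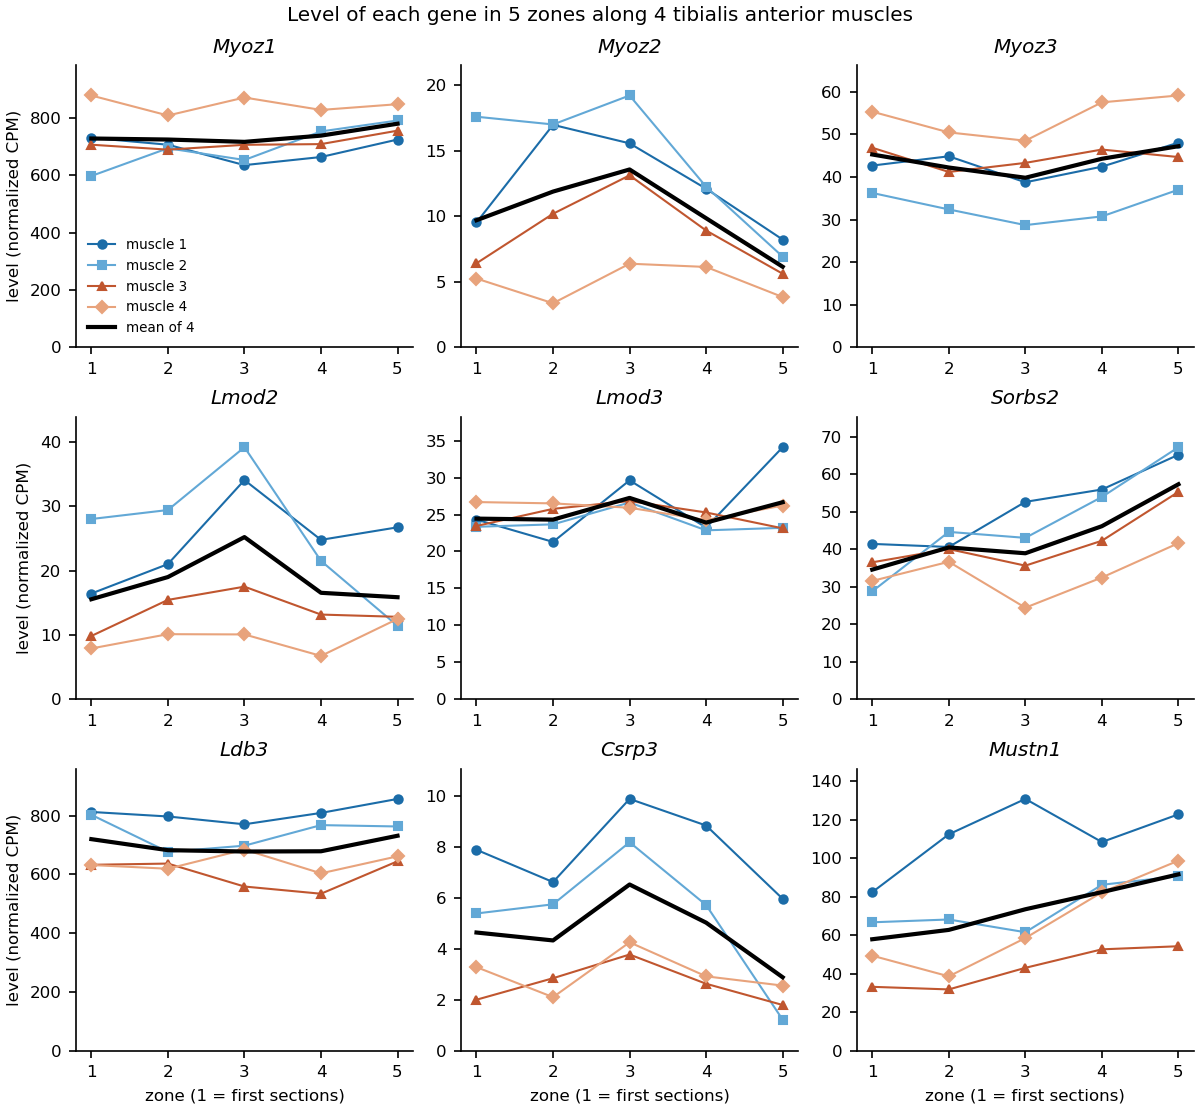
Normalized CPM (vertical axis, from 0) of each of the 9 genes in 5 zones along the muscle (horizontal axis); coloured lines are the 4 muscles and the black line their mean. Myoz2, Lmod2 and Csrp3 peak in zone 3 on average, Sorbs2 and Mustn1 are highest in zone 5, and Myoz1, Myoz3, Lmod3 and Ldb3 change little.

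Among the myozenins, Myoz2 (ENSMUSG00000028116, chromosome 3: 123006206 to 123035015, minus strand) was low at both ends. Its zone 3 levels were 15.6, 19.2, 13.1 and 6.38 CPM in muscles 1 to 4, against 9.53, 17.6, 6.41 and 5.25 CPM in zone 1 and 8.22, 6.92, 5.62 and 3.84 CPM in zone 5. Zone 3 was above both end zones in 4 of 4 muscles, but the ranges overlapped between muscles. Zone 5 stood at 45.3% of zone 3 and zone 1 at 71.5%. The fitted log2 difference, the ends (mean of zones 1 and 5) minus zone 3, was -0.81 ± 0.14 (SE), with -0.80, -0.78, -1.11 and -0.48 in muscles 1 to 4.

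Myoz1 (ENSMUSG00000068697, chromosome 14: 20649107 to 20656540, minus strand), the main myozenin of fast fibres, was nearly level along the muscle, with zone means from 717 ± 107 CPM in zone 3 to 780 ± 52.9 CPM in zone 5. Its ends minus middle difference was 0.08 ± 0.06. Muscle 4 was the highest in every zone after TMM scaling, and averaged over zones it was the lowest without it (684 CPM against 738.9 to 767.2 CPM). Myoz3 (ENSMUSG00000049173, chromosome 18) was slightly higher at the ends in 4 of 4 muscles, by 0.22, 0.35, 0.08 and 0.24 on the log2 scale, with zone means of 45.3 ± 8.00, 39.8 ± 8.42 and 47.3 ± 9.19 CPM in zones 1, 3 and 5. The values of the muscles overlapped between zones.

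Of the leiomodins, Lmod2 varied along the muscle and between muscles, and Lmod3 did so less. Lmod2 (ENSMUSG00000029683, chromosome 6: 24597762 to 24605414, plus strand) had 34.1, 39.2, 17.5 and 10.1 CPM in zone 3 of muscles 1 to 4. In zone 1 it had 16.4, 28.01, 9.82 and 7.88 CPM, and in zone 5 it had 26.7, 11.4, 12.8 and 12.5 CPM. Muscle 4 went its own way, with its highest value in zone 5. The fitted ends minus middle difference was -0.63 ± 0.13, with -0.70, -1.12, -0.64 and -0.02 in muscles 1 to 4, and it was -0.39 in muscles 3 and 4 alone. Lmod3 (ENSMUSG00000044086, chromosome 6: 97238534 to 97252759, minus strand) kept zone means between 23.9 ± 1.08 and 27.3 ± 1.63 CPM, and its ends minus middle difference was -0.08 ± 0.10.

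Csrp3 (ENSMUSG00000030470, chromosome 7: 48830398 to 48848033, minus strand) was rare and had its highest zone mean in the middle. It had 9.88, 8.18, 3.78 and 4.26 CPM in zone 3 of muscles 1 to 4, against 7.88, 5.39, 2.004 and 3.28 CPM in zone 1 and 5.96, 1.22, 1.80 and 2.56 CPM in zone 5. All 4 muscles were highest in zone 3, and the ranges overlapped. The fitted ends minus middle difference was -0.80 ± 0.19, with -0.52, -1.56, -0.95 and -0.52 in muscles 1 to 4. Zone sums of Csrp3 held as few as 3 counts.

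Ldb3 (ENSMUSG00000021798, chromosome 14: 34526603 to 34588682, minus strand) was as level as Myoz1, with zone means from 678 ± 87.96 to 732 ± 98.5 CPM and an ends minus middle difference of 0.10 ± 0.06. Sorbs2 and Mustn1 instead had their highest zone mean in zone 5. Sorbs2 (ENSMUSG00000031626, chromosome 8: 45507788 to 45827906, plus strand) had 41.4, 28.7, 36.5 and 31.5 CPM in zone 1 of muscles 1 to 4 and 65.2, 67.2, 55.3 and 41.6 CPM in zone 5. All 4 zone 5 values lay above all 4 zone 1 values, and the fitted log2 difference of zone 1 minus zone 5 was -0.68 ± 0.11. The Sorbs2 locus overlaps genes on the opposite strand, among them Sorbs2os, and its counts are uncertain because the sources used here do not say whether counting used strand.

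Mustn1 (ENSMUSG00000042485, chromosome 14: 30879200 to 30881610, plus strand) had 82.4, 66.8, 33.3 and 49.5 CPM in zone 1 of muscles 1 to 4 and 122.9, 90.8, 54.4 and 98.8 CPM in zone 5. Each muscle was higher in zone 5, while the ranges overlapped. The fitted zone 1 minus zone 5 difference was -0.68 ± 0.11, with -0.57, -0.44, -0.71 and -0.998 in muscles 1 to 4. Myoz2 and Csrp3 leaned the other way, by 0.57 ± 0.20 and 0.56 ± 0.28. Muscle 2 had the widest differences, 1.32 and 1.97, and without it the fitted values were 0.28 and 0.35. Lmod2 had -0.69, 1.28, -0.38 and -0.66 in muscles 1 to 4, so that muscle 2 opposed the other 3.

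Markers of other cells differed between the same ends. Tendon markers summed to 47.4 ± 3.07 CPM in zone 1 (range 43.8 to 51.3) and 117.2 ± 49.6 CPM in zone 5 (73.2 to 188.5), and 3 of 5 tested were lower in zone 1, with log2 differences of -2.12 for Prg4, -2.59 for Chad and -2.68 for Fmod. Of the defining markers, Scx had 1.77 ± 0.88 CPM in zone 1 and 2.64 ± 1.36 CPM in zone 5, and Tnmd 1.06 ± 0.29 and 2.71 ± 1.95 CPM. Red cell markers went the other way, with 3046 ± 1258 CPM in zone 1 and 969 ± 441 CPM in zone 5 and 5 of 5 higher in zone 1. Their part in the differences of Sorbs2, Mustn1, Myoz2 and Csrp3 was not tested.

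**Figure D2:**
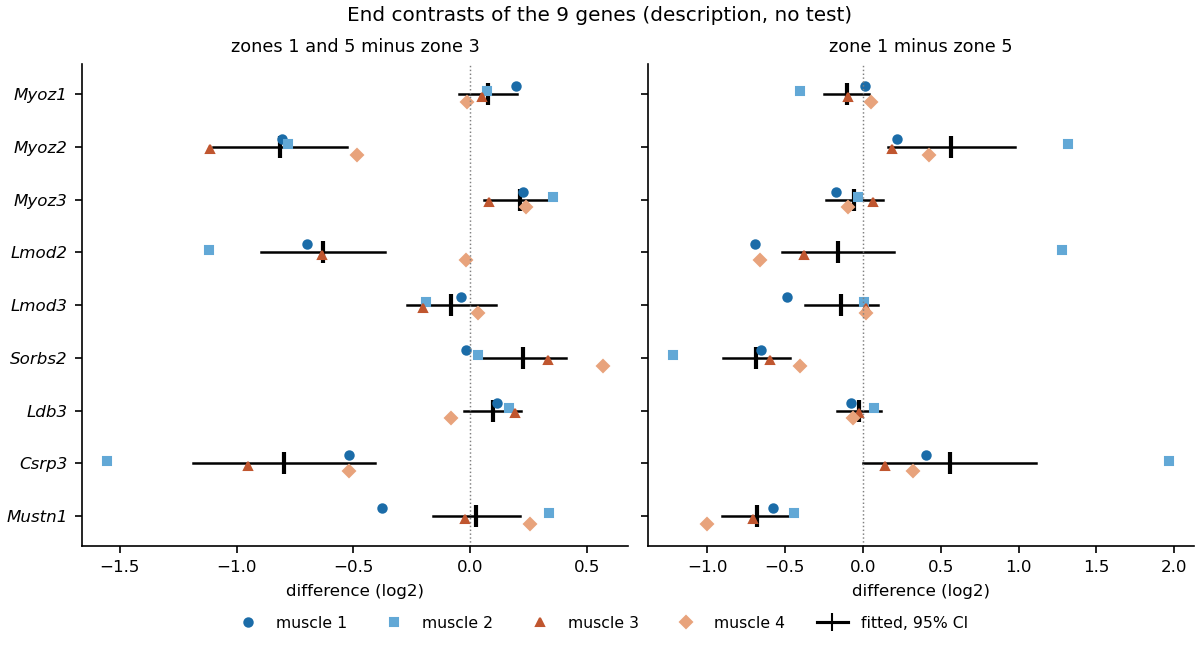
Log2 differences of the 9 genes for zones 1 and 5 minus zone 3 (left) and zone 1 minus zone 5 (right); coloured points are the 4 muscles, black ticks the fitted difference and black lines its 95% confidence interval. The genes were chosen with both contrasts known, so the intervals show the spread in the fit and are no test against 0. Myoz2, Lmod2 and Csrp3 have all 4 points at or below 0 on the left, and Sorbs2 and Mustn1 have all 4 below 0 on the right.

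For a test on sections that neither of those contrasts used, zone 2 was compared with zone 4. The sections differ, but they come from the same muscles, so a trend along the whole muscle enters both. Mustn1 was lower in zone 2 than in zone 4, and no other of the 9 genes passed the threshold. Zone 2 had 112.5, 68.3, 31.9 and 38.7 CPM of Mustn1 in muscles 1 to 4 and zone 4 had 108.5, 86.3, 52.7 and 82.4 CPM. Muscle 1 was near equal in both zones and the other 3 were lower in zone 2, so the groups overlapped. The log2 difference was -0.44 ± 0.11 (95% confidence interval -0.66 to -0.23, edgeR adjusted p = 0.0249, lower in 3 of 4 muscles), with 0.05, -0.34, -0.72 and -1.08 in muscles 1 to 4. All 9 genes passed the filter on low counts, and 1 of 9 called stands beside 0.762% of the 9317 genes tested (71 genes, 45 higher and 26 lower in zone 2; 40 without muscle 2 and 36 without muscle 3). With edgeR's robust estimate of the spread the Mustn1 call was lost (adjusted p = 0.357), as it was without muscle 2 (0.0681), 3 (0.428) or 4 (0.278) and with limma weighting sections alike (0.131). Fitting only the sums of zones 2 and 4 also lost the call (edgeR adjusted p = 0.0807), as did thinning all sums to the shallowest (0.501). The Mustn1 difference was -0.12 in muscles 1 and 2 alone and -0.86 in muscles 3 and 4 alone.

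Tendon cell markers as a sum were lower in zone 2 than in zone 4 in all 4 muscles, while Mustn1 was lower in 3 of 4. Their summed level over 10 genes was 46.7 ± 3.05 CPM in zone 2 (range 42.6 to 49.8) and 91.7 ± 27.9 CPM in zone 4 (range 70.9 to 132.7), and 3 of the 5 tested, Chad, Fmod and Prg4, were lower in zone 2. Of the defining markers, Scx had 1.91 ± 1.09 CPM in zone 2 and 2.64 ± 1.06 CPM in zone 4, and Tnmd 0.98 ± 0.53 and 1.41 ± 0.21 CPM. Red cell markers went the other way, with a sum of 3028 ± 1008 CPM in zone 2 and 1369 ± 679 CPM in zone 4, as did Schwann cell markers (35.9 ± 5.16 and 16.8 ± 3.53 CPM). Their part in the Mustn1 difference was not tested.

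The other 8 genes gave differences between zone 2 and zone 4 whose intervals all included 0. Myoz2 was 0.27 ± 0.16 higher in zone 2 (interval -0.05 to 0.59), with 3 of 4 muscles higher and muscle 4 lower by 0.81. Lmod2 was 0.20 ± 0.16 higher (-0.12 to 0.52), also in 3 of 4 muscles. Sorbs2 was -0.18 ± 0.10 (-0.39 to 0.03) and Csrp3 -0.16 ± 0.23 (-0.62 to 0.31), the widest interval of the set. For the abundant Myoz1 (-0.03 ± 0.07) and Ldb3 (0.02 ± 0.07) the intervals reached no further than 0.17 log2 units from 0. Myoz3 (-0.07 ± 0.09) and Lmod3 (0.03 ± 0.11) were between these.

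Each muscle was also divided into 10 slices of equal length, and the outermost (1 and 10) were compared with those next to them (2 and 9), a difference inside the end zones. None of the 9 genes was called by edgeR, beside 0.123% of the 7316 genes tested (9 genes, all lower in the outermost slices; 3 without muscle 1 and 14 without muscle 4). At an unadjusted edgeR p under 0.05, 4 of the 9 passed, beside 633 of the 7316 genes. These slices make up zones 1 and 5, so a graded profile toward the ends enters both this test and the contrasts known beforehand. Nothing is read from the 4 of 9. Myoz2 had the largest difference of the 9, -0.79 ± 0.24 (edgeR adjusted p = 0.253, lower in 4 of 4 muscles), with -1.44, -0.17, -1.69 and -0.57 in muscles 1 to 4. Lmod2 was also lower in 4 of 4 muscles (-0.59 ± 0.18, adjusted p = 0.273), with -0.73, -0.32, -0.30 and -0.90. Csrp3 was lower in 3 of 4 (-0.63 ± 0.30, adjusted p = 0.550), and Myoz3 higher in 4 of 4 (0.20 ± 0.09, adjusted p = 0.514). Counts behind these values were small: slice 10 held 3.51, 5.35, 3.84 and 3.24 CPM of Myoz2, from 7, 5, 4 and 4 counts. Without muscle 2 Myoz2 was called (-1.25, edgeR adjusted p = 0.0488), and limma with sections weighted alike called Myoz2 and Lmod2 (adjusted p = 0.00359 and 0.00502) but also 743 genes in all.

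**Figure D3:**
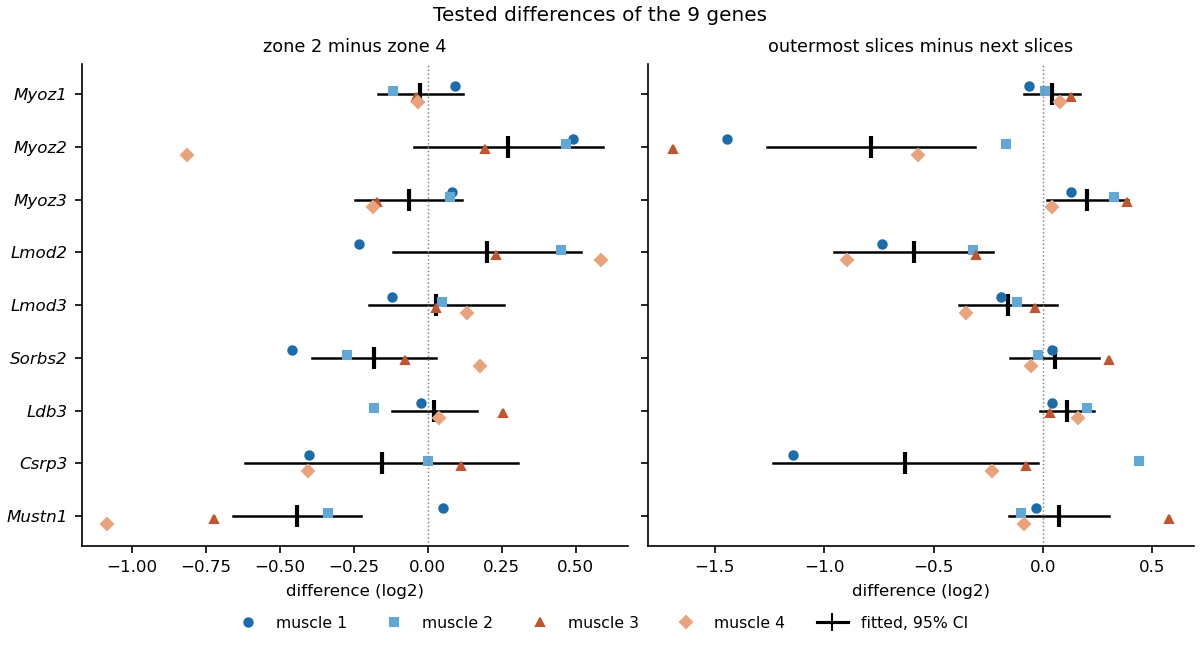
Log2 differences of the 9 genes for zone 2 minus zone 4 (left) and for the outermost slices minus the next slices (right); coloured points are the 4 muscles, black ticks the fitted difference and black lines its 95% confidence interval. Only the Mustn1 interval on the left belongs to a gene past the adjusted threshold, and its points run from 0.05 to -1.08.

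Myoz1 supplied most myozenin counts everywhere. Its share of the counts of the 3 myozenins was 92.5% to 93.6% per muscle, that of Myoz3 4.35% to 5.91% and that of Myoz2 0.58% to 2.09%. Along the muscle the Myoz2 share was 1.33% ± 0.95 (SD, n = 4) in zone 1, 1.85% ± 0.88 in zone 3 and 0.75% ± 0.26 in zone 5. Within each muscle, zone 3 had more than zone 5 (2.26% against 1.05%, 2.74% against 0.83%, 1.72% against 0.70% and 0.69% against 0.42% in muscles 1 to 4). The Myoz3 share moved less, between 5.16% ± 0.74 in zone 3 and 5.77% ± 0.33 in zone 1.

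Lmod2 and Lmod3 were closer to one another. Lmod2 made 48.4%, 53.6%, 35.6% and 26.4% of their joint counts in muscles 1 to 4, so that muscle 2 alone had more Lmod2 than Lmod3. By zone the share was 36.8% ± 13.9, 42.5% ± 12.5, 45.1% ± 14.2, 39% ± 13.8 and 36.2% ± 5.36 from zone 1 to 5, with a spread between muscles at least as wide as the difference between zones in all but zone 5. These shares use the same zone sums as the end contrasts and are a description.

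**Figure D4:**
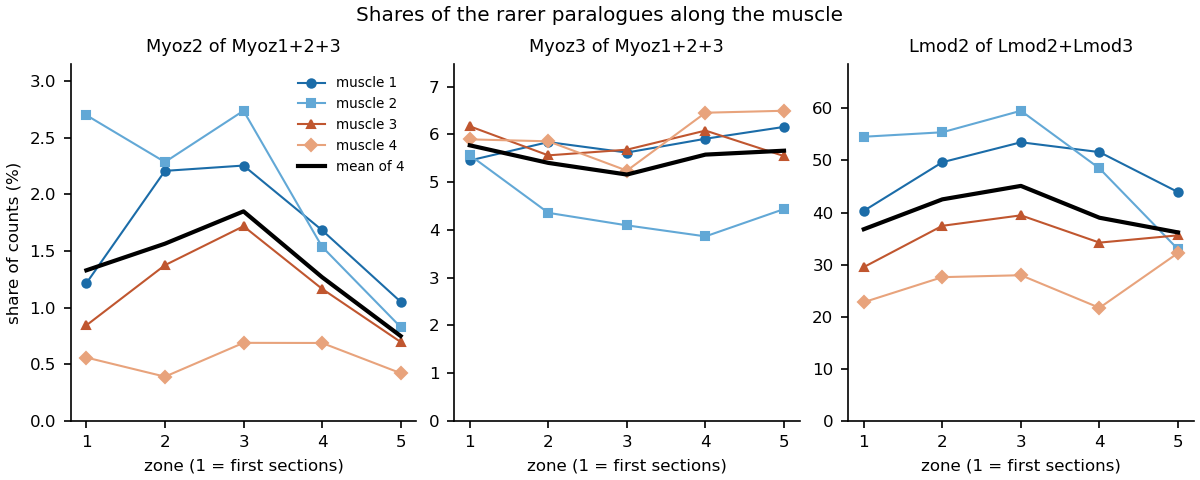
Percent of myozenin counts from Myoz2 (left) and Myoz3 (centre), and percent of Lmod2 plus Lmod3 counts from Lmod2 (right), by zone; coloured lines are the 4 muscles and the black line their mean, and each vertical axis starts at 0. The Myoz2 share peaks at 1.85% in zone 3, and muscle 4 has the lowest Lmod2 share in every zone, with 27.96% in zone 3.

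Between muscles, Csrp3, Myoz2 and Lmod2 differed most. The highest muscle exceeded the lowest 3.001 times for Csrp3 (7.83, 5.25, 2.61 and 3.02 CPM in muscles 1 to 4), 2.92 times for Myoz2 (12.5, 14.6, 8.85 and 4.99 CPM) and 2.74 times for Lmod2 (24.6, 25.9, 13.7 and 9.45 CPM). Mustn1 followed with 2.59 times, and Lmod3 had 1.11 times. This order depended on TMM scaling: without it, tried after seeing the data, Myoz2 (3.83 times) and Lmod2 (3.66) passed Csrp3 (3.49), and Lmod3 (1.39) varied more than Myoz1 (1.122) and Myoz3 (1.30). In 6 of the 9 genes (Myoz2, Lmod2, Sorbs2, Ldb3, Csrp3 and Mustn1) muscles 1 and 2 were both above muscles 3 and 4, and Myoz1, Myoz3 and Lmod3 were not among them. That ordering held for 35.3% of the 9317 genes tested, and the opposite one for 33.2%. Without TMM scaling it was 8 of the 9 genes, beside 46.6% of all genes. Muscle and barcode set cannot be told apart here.

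Section by section, Myoz1 and Ldb3 varied most like the muscle enolase Eno3, and Lmod2 and Myoz2 varied most like the type 2A myosin Myh2. Likeness was taken as Pearson r between log2(CPM + 1) of a pair of genes over the sections of a muscle, averaged over the 4 muscles; the points share libraries, and depth enters both genes. Counting noise lowers r for rare genes, so values are not compared in size between abundant and rare genes. Myoz1 and Ldb3 had the highest mean r of the 36 pairs (0.71, range 0.48 to 0.82 over muscles). They were also the most abundant of the paired genes, and every other pair held a rarer gene. Their rank is therefore not read as a closer likeness than that of other pairs. Among the 1397 genes of at least 30 CPM, Myoz1 was most like Eno3 (0.78), the fast alpha-actinin Actn3 (0.75) and the glycolytic enzyme Tpi1 (0.73); 1 of these 3 stayed among its first 3 without muscle 2. Ldb3 was most like Eno3 (0.75), the phosphofructokinase Pfkm (0.74) and Tpi1 (0.72). With Myh4, the type 2B myosin, which neared the upper limit of the UMI count, Myoz1 had r 0.67 and Ldb3 0.58.

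Lmod2 and Myoz2 resembled Myh2, the myosin of fast oxidative type 2A fibres, above all other genes ranked. Mitochondrially encoded genes were not among those ranked. For Lmod2 r was 0.62 (0.76, 0.58, 0.75 and 0.40 in muscles 1 to 4), followed by the type 2X myosin Myh1 (0.51) and Galnt2l (0.48). Without muscle 3, 1 of these 3 stayed among the first 3. For Myoz2 r with Myh2 was 0.54 (0.67, 0.63, 0.56 and 0.29), followed by the respiratory chain gene Ndufa4 (0.49) and the lipoprotein lipase Lpl (0.46). For Csrp3 the first 3 were Fndc5 (0.43), Lpl (0.41) and the fatty acid transporter Cd36 (0.39), weak values in sparse counts from which nothing is read. Myh2 itself had zone means of 322 ± 242, 491 ± 326 and 274 ± 179 CPM in zones 1, 3 and 5. Its ends minus middle difference was -0.71 ± 0.09. The profiles include the sections of the end contrasts known when the genes were chosen, so the likeness to Myh2 is not independent of those contrasts.

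Sorbs2 was most like Mylk4 (0.60), the Z-disc protein Mypn (0.59) and Actn3 (0.56). Mustn1 came closest to the calcium buffer Pvalb (0.58; near the upper limit of the UMI count), the carbonic anhydrase Car3 (0.57) and the fast myosin light chain Mylpf (0.56), but without muscle 4 it kept 0 of these 3. It had r 0.60 (0.54 to 0.63) with the summed tendon markers. For Sorbs2 the value with the tendon markers was 0.44. Myoz3 was most like the ribosomal gene Rpl23 (0.53), Gm14164 (0.53) and Tpi1 (0.52), and without muscle 2 it kept 0 of these 3. For Lmod3 the first 3 were Ncl (0.43), Nexn (0.41) and Gpcpd1 (0.40), of which 1 stayed without muscle 1, 3 or 4, and nothing is read from them.

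**Figure D5:**
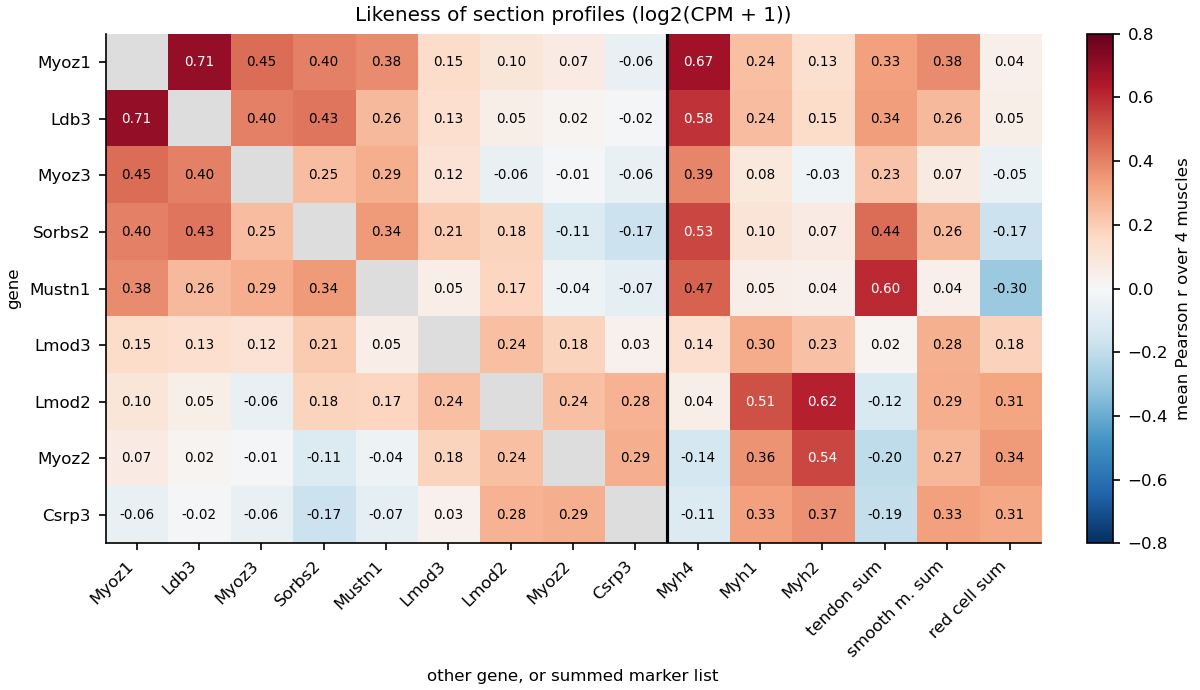
Mean Pearson r over 4 muscles between section profiles, log2(CPM + 1), of each gene (rows) and the other 8 genes, 3 myosin genes and 3 summed marker lists (columns); red is positive, blue negative and grey the gene with itself. Myoz1 and Ldb3 reach 0.71 with one another, Lmod2 and Myoz2 have 0.62 and 0.54 with Myh2, and Mustn1 has 0.60 with the tendon sum.

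Other genes of the same machinery changed in few cases. Of 30 tested genes for other Z-disc proteins, 1 was higher in zone 2 than in zone 4 and none lower (median log2 difference 0.05, beside -0.01 over all genes). It was Actn2, the alpha-actinin shared by all fibre types, at 105 ± 33.2 CPM against 83.1 ± 21.4 CPM (0.33 ± 0.09, edgeR adjusted p = 0.0462, higher in 4 of 4 muscles). Of 20 genes for thin filament ends, nucleation and turnover, 1 was higher (median 0.11): Actc1, the cardiac actin that adult skeletal fibres keep at low level, with 1.13 ± 0.14 (edgeR adjusted p = 2.4e-08, 4 of 4 muscles; 0.0704 with the robust estimate of the spread). Actc1 overlaps a gene on the opposite strand, which makes its count uncertain.

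Of 14 calcineurin and NFAT genes, 1 was higher in zone 2 (median -0.14): Rcan2, an inhibitor of calcineurin, with 28.95 ± 1.97 against 21.9 ± 3.31 CPM (0.44 ± 0.11, edgeR adjusted p = 0.0428, 4 of 4 muscles). An opposite-strand gene lies within it. Of 6 slow and type 2A fibre genes, 1 was higher (median 0.27): Fabp3, a fatty acid binding protein, with 121 ± 13.6 against 91.8 ± 5.92 CPM (0.38 ± 0.09, edgeR adjusted p = 0.0145, 4 of 4 muscles). It too overlaps genes on the opposite strand, Gm10570 and Zcchc17. No gene of 12 fast fibre genes (median -0.16) or 4 stretch-responsive genes (median -0.11) was called by edgeR. Of the fast fibre genes, Pvalb, Tnnc2, Atp2a1, Tpm1, Myh4, Tnnt3 and Myl1 used 90% or more of the UMIs in at least 1 section. For these the lack of a call says little, here and in the slices. Calls near the threshold were fragile: Actn2 was lost without muscle 1, 2 or 3 (adjusted p 0.105, 0.333 and 0.300), Rcan2 without muscle 2 or 3 (0.308 and 0.451) and Fabp3 without muscle 3 or 4 (0.0946 and 0.0987).

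In the outermost slices, Ankrd2, a stretch-responsive partner of titin, was lower than in the next slices (-1.15 ± 0.21, edgeR adjusted p = 0.00142, lower in 4 of 4 muscles), 1 of 4 stretch-responsive genes. The call was lost without muscle 4 (edgeR adjusted p = 0.0585) and without the outermost section at each end (0.0542). No other Z-disc (29 tested), thin filament (19), calcineurin (14), slow or type 2A (6) or fast fibre gene (12) was called there by edgeR.

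At both ends against the middle, 2 of 30 other Z-disc genes, Hspb7 and Flnc, were lower and none higher, beside 1.45% of all 9317 genes. None of 20 thin filament and none of 14 calcineurin genes was called. Between the first and the last end, Cryab was higher in zone 1 and Actn3 and Neb lower, 3 of 30 other Z-disc genes, beside 3.18% of all genes. Other cells also differed at the ends: the summed markers of fibro-adipogenic progenitors were 348 ± 30.96, 482 ± 69.3 and 382 ± 66.1 CPM in zones 1, 3 and 5, and those of Schwann cells 21.3 ± 13.7, 27.7 ± 3.92 and 10.9 ± 2.06 CPM. By edgeR 5 of 9 and 4 of 5 of these markers were lower at the ends. Macrophage markers summed to 26.1 ± 7.72, 44.98 ± 15.6 and 32.6 ± 6.10 CPM, with 1 of 5 lower. Neuromuscular junction genes summed to 87.3 ± 20.4, 110.6 ± 15.4 and 88.6 ± 7.28 CPM, with 3 of 7 lower. Most of the junction sum came from Prkar1a alone, with 55.8, 69.8 and 50.05 CPM in zones 1, 3 and 5. Tendon markers summed to 47.4 ± 3.07, 54.3 ± 10.3 and 117.2 ± 49.6 CPM, above the middle in zone 5 but not in zone 1, and 2 of 5, Prg4 and Chad, were higher at the ends. Their part in the differences of Myoz2, Lmod2 and Csrp3 was not tested.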

How the data were processed

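RNA of single cryosections of 4 tibialis anterior muscles was primed with section barcodes of 8 bases and UMIs of 6 bases, per the labels' protocols. For 96 section barcodes a muscle the authors deposited estimated counts of genes. The submitters' processing notes name STAR 2.7.7a and GRCm38. How counts were made, with which annotation and whether by strand is not given in the sources used here. From the values, each deposited count is a number of UMIs corrected for UMIs drawn more than once out of 4096 (100.0% of values within 0.001). The 9 genes used at most 26.8% of these, far from the cap, while 22 other genes used 90% or more. The authors' second table per muscle holds a normalized signal, the deposited counts of some genes and sections times 1 factor per section, and served only to find the sections they kept. Entries naming several genes were left out (0.58% to 0.93% of counts).

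Counts were summed and rounded per muscle and zone (5) or slice (10) and fitted with edgeR 4.0.16 under R 4.3.3 (TMM scaling, the filterByExpr filter, the quasi-likelihood test and Benjamini-Hochberg adjustment over all genes, threshold 0.05) with muscle as a block. Any p-value measures the spread between sums of these muscles, which may be technical, and with 4 muscles an exact sign-flip test cannot go below 0.125. The fit was run with edgeR's robust estimate of the spread and without it; the version without it, edgeR's default, is given as the main one, and that choice was made after both had been seen. Muscle differences used a prior count of 0.5. The 9 genes, the gene lists and the tests were chosen with earlier results of these data known. Named besides the 9 are, per gene, the 3 most alike in section profile (mitochondrially encoded genes left out), and called genes of 6 lists in the tested contrasts. Lists of other cells were smooth muscle and pericyte, tendon, endothelial, fibro-adipogenic, macrophage, Schwann, red cell, satellite cell and neuromuscular junction markers. Gene coordinates are from GENCODE M21 (28895 of 28989 genes matched) and promoters from RefSeq (GRCm38.p6). The scripts were tested on simulated counts.

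In the zone 2 against zone 4 test, of the lists not named in the results, 2 of 9 smooth muscle and 4 of 5 Schwann and 4 of 5 red cell markers were higher in zone 2, and none of the endothelial (9), fibro-adipogenic (9), macrophage (5), satellite cell (3) or neuromuscular junction (7) markers was called by edgeR.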

Additional observations from a re-analysis of the deposited data

Results flagged for a closer look

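In 7 of 90 groups of 4 muscles, 1 muscle lay far from the other 3 by Dixon's criterion; chance flags about 1 in 20 such groups. Muscle 3 stood apart for Mustn1 in the outermost slices minus the next slices (0.58, others -0.10 to -0.03). For the first end minus the last end, muscle 2 stood apart for Lmod2 (1.28, others -0.69 to -0.38) and for Csrp3 (1.97, others 0.14 to 0.41), and muscle 1 for Lmod3 (-0.48, others 0.01 to 0.02). The Lmod2 level in zone 5 was 26.7 CPM in muscle 1 against 11.4 to 12.8 in the others. Myoz1 was highest in muscle 4, both in zone 2 (808.7 CPM, others 689.6 to 706.8) and averaged over zones (847 CPM, others 692 to 714). Without TMM scaling muscle 4 was instead the lowest on average (684 CPM, others 738.9 to 767.2).

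The section barcodes that the authors did not keep also held counts of the 9 genes, 1040, 1022, 661 and 644 in muscles 1 to 4. They came from 59, 51, 50 and 53 barcodes with 554266 to 710775 counts a muscle in all, or 958 to 1483 CPM for the 9 genes together, against 1381 to 1945 CPM in the kept sections.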

How the results depend on the processing

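Counts of genes called over all genes were 71 for zone 2 against zone 4, 9 for the slices, 135 for the ends against the middle and 296 for the first against the last end. Without muscle as a replicate block they were 0, 0, 0 and 1; this fit leaves the differences between muscles in the spread. Thinning all sums to the shallowest gave 35, 4, 61 and 164. Muscles 1 and 2 alone gave 28, 3, 44 and 161, and muscles 3 and 4 alone 36, 1, 55 and 74. With 1 muscle left out the counts ran from 36 to 64 (36 without muscle 3, 40 without muscle 2), from 3 to 14 (3 without muscle 1, 14 without muscle 4), from 38 to 183 (38 without muscle 3, 74 without muscle 2) and from 87 to 201 (87, 180 and 195 without muscles 2, 3 and 4). Limma with sections weighted alike gave 22 calls for zone 2 against zone 4, 743 for the slices (742 lower) and 122 for the first against the last end. For the slices DESeq2 gave 19, no filter on low counts 37, fitting only the sums compared 4 and leaving out the outermost sections 3. Fitting only the sums compared gave 193 calls for the first against the last end. The causes were not tested.

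Small, uncalled differences of the 9 genes changed sign in some settings. For zone 2 minus zone 4 these were Myoz2 (-0.0035 in muscles 3 and 4 alone), Myoz3 (0.0778 in muscles 1 and 2 alone), Sorbs2 (0.0141 in muscles 3 and 4 alone) and Lmod3 (-0.0759 thinned, -0.0114 in muscles 1 and 2 alone and -0.0116 without the outermost sections). Ldb3 gave -0.0019 without the filter, -0.0953 in muscles 1 and 2 alone and -0.0171 with limma, and Csrp3 0.235 with limma. With 1 muscle left out Myoz1 ran from -0.0533 to 0.012, Ldb3 from -0.0595 to 0.0965 and Csrp3 from -0.243 to 0.0063. For the slices, Myoz1 gave -0.017 in muscles 1 and 2 alone and -0.0959 with limma, Mustn1 -0.0097 in muscles 1 and 2 alone, and Sorbs2 -0.165 and Ldb3 -0.014 with limma. With 1 muscle left out Sorbs2 ran from -0.0246 to 0.0996 and Mustn1 from -0.0504 to 0.14. The Mustn1 call in zone 2 against zone 4 held in 8 of 17 alternatives (adjusted p from 2.7e-05 to 0.9997), and its sign in all 17. Myoz2, Lmod2 and Csrp3 were lower at the ends, and Sorbs2 and Mustn1 lower at the first end, in every alternative run. The genes were chosen with both contrasts known, and the alternatives refit the same muscles or some of them. These signs are therefore a description and no independent support. Robust estimates of the spread, chosen after seeing the data, called 73, 6, 181 and 313 genes. Of the 27 genes named for likeness, 24 stayed among the first 3 with log2(CPM + 10), 19 with Spearman's rho and 15 to 22 with a muscle left out, but 0 of 3 for Mustn1 without muscle 4 and for Myoz3 without muscle 2. Depth limits Csrp3 and Myoz2 most, whose slices held as few as 1 count.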
